A study of Rattus norvegicus with 10 samples.

Results

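The receptor of the cytokine TWEAK, encoded by Tnfrsf12a, and TWEAK itself, encoded by Tnfsf12, are described here in the tissue below the skin of arthritic rats. They are the 2 of the 17221 transcripts in the expression table that carry these symbols, 1 transcript for each gene. The pair was picked because Tnfrsf12a was high in both groups that received acupuncture, so its levels are given below as a description, without a test. The table holds 10 libraries of polyadenylated RNA in 5 groups of 2 female Wistar rats. Every animal had collagen-induced arthritis, a joint disease started by immunisation with bovine type II collagen, and no healthy animal is among these groups. RA_0 is the group taken before any therapy. AP_1h and AP_34d received acupuncture, which the study calls mechanical stimulation: a short needle was inserted and twirled at points of the lower back and below the knee. PLA_1h and PLA_34d received the saline placebo, which per the methods was injected into the peritoneum and so not at those points. The suffixes give the sampling time, 1 h or 34 days, and since animals were killed at sampling, different rats stand at each time. The tissue was excised round the stimulated points and included subcutaneous muscle. The titles call every sample muscle tissue 1, and the study describes its sampling as dorsal subcutaneous tissue. The labels do not say from which point each sample came.

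TWEAK is a cytokine of the TNF family, made as a membrane protein and released by cleavage, and its receptor, also called Fn14, is a small member of the TNF receptor family. The receptor has no death domain: it recruits TRAF adaptors, and through them the cIAP ligases, the kinase NIK and the IKK complex, so that NF-kB subunits enter the nucleus. The receptor gene was first described as one induced by fibroblast growth factor and serum. In resting skeletal muscle its level is low, and it is known to rise on injury and denervation, while the ligand is made broadly, by macrophages among others. A second protein, the scavenger receptor CD163 of macrophages, also binds TWEAK.

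The sequence ahead of the Tnfrsf12a start site is shown because the receptor's level spanned the wider range among these libraries. These 250 bases come from RefSeq, build GRCr8, chr10:13213649-13213898 on the minus strand, written 5′ to 3′ and ending at the base before the annotated start. Capitals mark the GC box GGGCGG on either strand.

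Tnfrsf12a promoter: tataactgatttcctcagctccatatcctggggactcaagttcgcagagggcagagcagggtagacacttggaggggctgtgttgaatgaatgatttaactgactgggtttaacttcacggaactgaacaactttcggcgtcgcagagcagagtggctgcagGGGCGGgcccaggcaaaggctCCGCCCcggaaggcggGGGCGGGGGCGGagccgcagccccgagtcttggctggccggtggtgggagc

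The GC box occurred 4 times, beginning 88, 67, 51 and 45 bases before the start, the one at 67 on the opposite strand, and no 2 of the matches overlap. Of 27457 promoters of the same length, 32.4% held at least 1 such match. The stretch had 60.8% G and C against a median of 52% over all promoters. Searched on both strands, the AP-1 motif TGANTCA, the cAMP response element TGACGTCA and the NF-kB motif, read as GGG, NN and TTTCC in a row, had no match in this window; they occur in 6.36%, 1.70% and 1.28% of promoters. The promoter table holds no entry for Tnfsf12.

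In the build of the expression table, rn4, both members lie on the minus strand of chromosome 10. The span of Tnfrsf12a (NM_181086) was chr10:12940334-12942343, which is 2010 bases, and that of Tnfsf12 (NM_001001513) was chr10:56503756-56513053, which is 9298 bases. Neither span overlaps another transcript of the table, a point that matters because the counting may not have used strand. The nearest transcripts of the receptor are Hcfc1r1, 229 bases below it and listed at 0 in every library, and Cldn6, 2159 bases above, with 3 reads over the 10 libraries. A second, overlapping transcript of Hcfc1r1 had 2.78 to 10.9 CPM, with no group standing apart from the others. The nearest transcripts of the ligand are Tnfsf13, the gene of the related cytokine APRIL, 827 bases below it at 3.51 to 15.03 CPM, and Slc35g3, 67415 bases above it at 0 to 1.09 CPM.

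The libraries held 5371687 to 8899521 reads on transcripts, so that 1 CPM, the unit of reads scaled to a common library total with TMM factors, stood for 4.19 to 10.1 reads, and 3 reads, the upper limit a count of 0 allows, for 0.297 to 0.716 CPM. Skeletal muscle RNA was abundant throughout: 10 fibre markers, led by the actin gene Acta1, summed to 130600 to 335700 CPM. The library of PLA_34d replicate 1 stood apart, with a mean correlation of 0.954 with the other libraries against 0.972 to 0.980 for the rest. Its 7 lymphocyte markers summed to 436 CPM, against 0.448 to 10.2 CPM in the other 9 libraries. For both members and for several of the listed genes, differences that use this library are also given without it. Transcript lengths were not available, so levels are compared between libraries and never between genes.

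**Figure D1:**
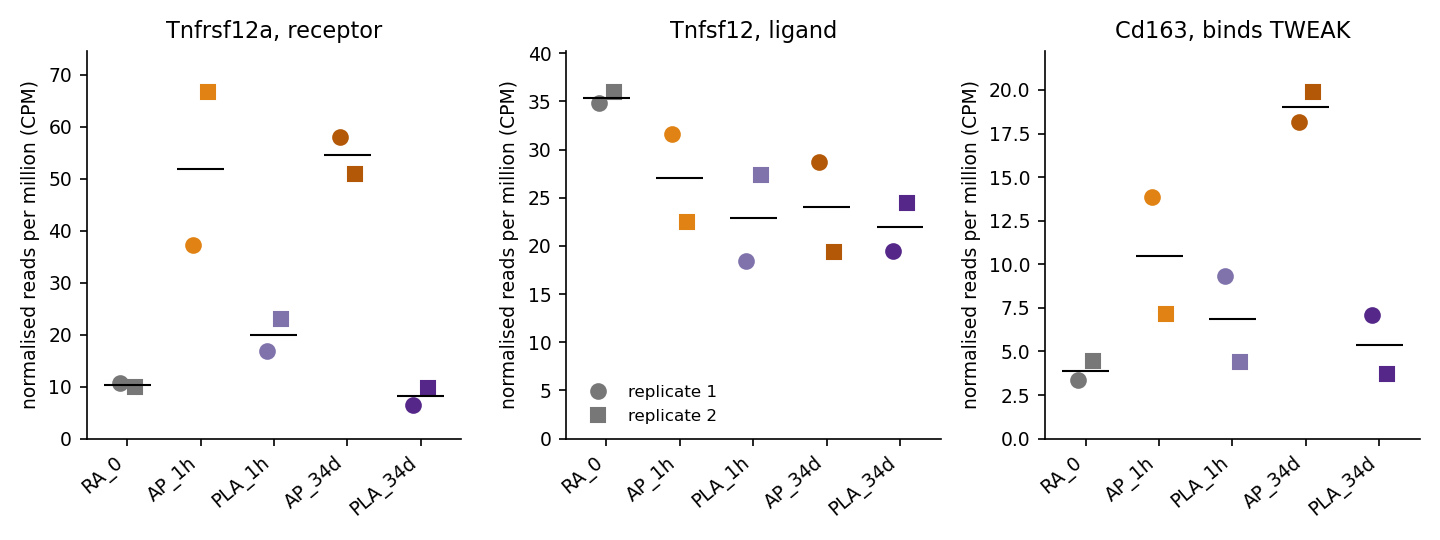
Level of Tnfrsf12a, Tnfsf12 and Cd163 in each of the 10 libraries, in CPM; circles are replicate 1, squares replicate 2, and bars the mean of the 2. For Tnfrsf12a the 4 acupuncture libraries lie between 37.2 and 66.6 CPM and the other 6 between 6.51 and 23.0 CPM.

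Tnfrsf12a was high in all 4 acupuncture libraries and low before therapy and after 34 days of placebo. Before therapy its level was 10.7 CPM (45 reads) and 9.95 CPM (67 reads). One hour after acupuncture it was 37.2 CPM (344 reads) and 66.6 CPM (476 reads). After 34 days of acupuncture it was 58.0 CPM (297 reads) and 50.9 CPM (341 reads). The lowest of these 4 libraries, AP_1h replicate 1, was still above each of the 6 others. Both libraries lay above both RA_0 libraries for 20.6% of all transcripts tested in AP_1h and 16.4% in AP_34d.

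In the placebo groups the receptor stood at 16.9 CPM (170 reads) and 23.0 CPM (131 reads) at 1 h, and at 6.51 CPM (58 reads) and 9.81 CPM (69 reads) at 34 days. Thus both 1 h placebo libraries were above, and both 34-day placebo libraries below, the 2 libraries taken before therapy, as were 15.8% and 14.2% of all transcripts tested in these 2 contrasts and directions. The second of these gaps is narrow: 95% Wilson intervals for counting error alone ran from 7.75 to 12.4 CPM in PLA_34d replicate 2 and from 7.84 to 12.6 CPM in RA_0 replicate 2.

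The order of the group means was AP_34d at 54.5 ± 4.999 CPM (SD, n = 2, as for each mean here), AP_1h at 51.9 ± 20.8, PLA_1h at 19.9 ± 4.34, RA_0 at 10.3 ± 0.555 and PLA_34d at 8.16 ± 2.33. The 2 acupuncture groups at the top overlapped each other, since both AP_34d libraries lay between the AP_1h libraries. The 4 acupuncture libraries were above the 4 placebo libraries without overlap, which also held for 130 of the 10259 transcripts tested (1.27%), and above the 6 others, which held for 80 (0.78%). The receptor was chosen by this pattern, so nothing is read from these shares.

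On the scale of log2(CPM + 1), Tnfrsf12a was 2.16 higher in AP_1h and 2.29 higher in AP_34d than in RA_0, with an SE of 0.36 from the fit over all libraries for each difference of 2 groups. The corresponding differences for placebo were 0.87 at 1 h and −0.33 at 34 days. These 4 differences share the RA_0 libraries. Acupuncture exceeded placebo by 1.30 at 1 h and by 2.62 at 34 days, or 2.61-fold and 6.68-fold as ratios of mean CPM, and by 1.96 (SE 0.25) over both times. The gap between acupuncture and placebo was 1.32 (SE 0.51) wider at 34 days than at 1 h. Within acupuncture the 2 times differed by 0.12, and within placebo the 34-day level differed by −1.2.

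Leaving out PLA_34d replicate 1 gave 2.36 for acupuncture against placebo at 34 days, −0.07 for placebo at 34 days against RA_0 and 1.06 for the widening. Leaving out AP_1h replicate 2, the library with the highest receptor level, gave 1.75 for AP_1h against RA_0 and 0.88 against PLA_1h.

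Tnfsf12, the ligand, was highest before therapy, and no difference between groups passed the test. It stood at 34.8 CPM (146 reads) and 35.9 CPM (242 reads) in RA_0. In AP_1h it was 31.6 CPM (292 reads) and 22.5 CPM (161 reads), and in PLA_1h 18.4 CPM (186 reads) and 27.4 CPM (156 reads). At 34 days it was 28.7 CPM (147 reads) and 19.4 CPM (130 reads) after acupuncture, and 19.5 CPM (174 reads) and 24.4 CPM (172 reads) after placebo. All 8 later libraries were below both RA_0 libraries, as they were for 225 of the 10259 transcripts tested (2.19%), while the acupuncture and placebo libraries overlapped at both times.

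The difference of Tnfsf12 from RA_0 on the log2(CPM + 1) scale was −0.39 for AP_1h (limma adjusted p = 0.776), −0.56 for AP_34d (0.967), −0.63 for PLA_1h (1.00) and −0.67 for PLA_34d (0.914), each with an SE of 0.34. Without PLA_34d replicate 1 the last was −0.52. Acupuncture minus placebo was 0.24 at 1 h and 0.11 at 34 days (limma adjusted p = 1.00 and 0.978), with 95% intervals of −0.51 to 0.98 and −0.64 to 0.85. The 34-day difference turned to −0.05 without PLA_34d replicate 1. Over all 8 libraries the ligand was 25.6 ± 5.57 CPM after acupuncture and 22.5 ± 4.20 CPM after placebo (SD, n = 4 each; difference 0.17, exact two-sided permutation test p = 0.429, where the smallest p possible is 0.0286).

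Over the 10 libraries the ligand did not follow its receptor: Pearson's r between their log2 levels was −0.10, given as a description since the libraries share their groups.

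**Figure D2:**
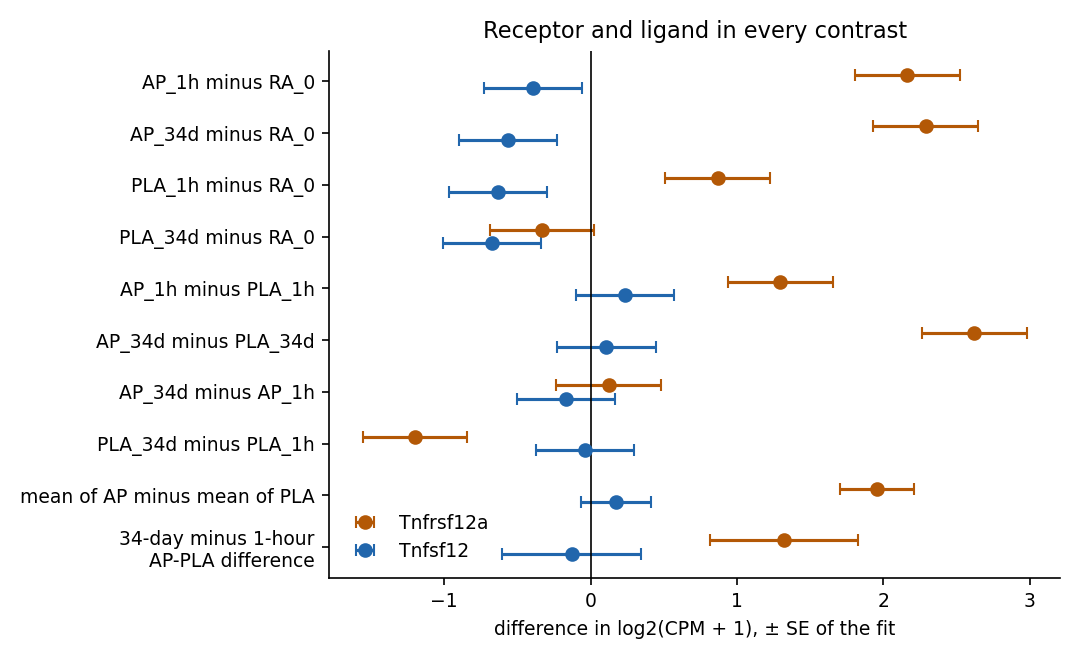
Differences of Tnfrsf12a and Tnfsf12 in each contrast, in log2(CPM + 1), with bars of ± 1 SE from the fit over all 10 libraries. The receptor ranges from −1.2 to 2.62, whereas the ligand lies between −0.67 and 0.24.

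Cd163, the gene of the macrophage receptor that binds TWEAK, was highest after 34 days of acupuncture, at 18.2 and 19.9 CPM, above every other library. The share of all transcripts with such a separation was not counted. Cd163 was 3.34 and 4.46 CPM in RA_0, 13.8 and 7.14 in AP_1h, 9.32 and 4.39 in PLA_1h, and 7.07 and 3.70 in PLA_34d. The difference from RA_0 was 2.04 ± 0.45 (log2, SE) for AP_34d and 1.18 ± 0.45 for AP_1h, and AP_34d exceeded PLA_34d by 1.70 ± 0.45. None passed the limma test (adjusted p = 0.595, 0.482 and 0.846; the last difference was 2.09 without PLA_34d replicate 1), but each met the rule of the study, which asks for p under 0.05 before adjustment, 1 CPM or more on average and a 2-fold or larger difference. Cd163 is itself 1 of the 9 macrophage markers found in the table. These summed to 106 to 120 CPM in RA_0, 121 to 312 in AP_1h, 136 to 254 in AP_34d, 114 to 145 in PLA_1h and 90.4 to 301 in PLA_34d. In bulk tissue, fewer or more cells of a type and less or more RNA per cell cannot be told apart.

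The rest of the pathway was followed with gene lists of 108 symbols, of which 91 were in the table and 71 transcripts passed the filter on low values; the lists, like the members, were drawn up with earlier results of these data known. By limma's adjusted p, 0 of the 71 were called in any contrast, where 3 of 10259 transcripts (0.0292%) were called for AP_1h against RA_0 and 0 in the other contrasts. With DESeq2 on the recovered reads, 5 listed transcripts were called for AP_1h against RA_0 and 5 for AP_34d against PLA_34d; with edgeR, 0. Over all transcripts DESeq2 called 1.69% and 0.877% in these contrasts. At an unadjusted p under 0.05 the limma fit gave 18 and 14 of the 71, against 8.89% and 5.47% of all transcripts tested.

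By the study's rule 16 of the 71 were met for AP_1h against RA_0 (15 higher, 1 lower), where 6.12% of all transcripts tested met it (2.53% higher, 3.59% lower). For AP_34d 8 were higher and 1 lower, with a background of 2.82% (1.49% and 1.33%). For PLA_1h 7 were higher and 1 lower, with a background of 1.67% (0.994% and 0.673%), and for PLA_34d 2 and 2, with a background of 2.42% (1.98% and 0.439%). For acupuncture against placebo 6 were higher and 3 lower at 1 h, with a background of 2.62% (0.975% and 1.65%), and 8 and 3 at 34 days, with a background of 3.57% (1.38% and 2.18%).

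Single libraries moved these counts. In each of these contrasts the count rose with some library left out and fell with another. The number of all transcripts that met the rule moved too. In the contrasts that use PLA_34d it was highest without PLA_34d replicate 2, and in the rest without other libraries. The number of transcripts tested also changed. A library left out leaves 1 library in its group, so no count of listed genes is read from these fits.

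Among the adaptors and kinases that the receptor engages, none met the rule in any contrast. The 11 of 13 symbols in the table, all tested, were the TRAF adaptors Traf2, Traf3 and Traf6, the cIAP genes Birc2 and Birc3, the kinases Map3k14 (NIK), Chuk, Ikbkb and Map3k7 (TAK1), the IKK scaffold Ikbkg, and Rac1. Their median difference was 0.32 for AP_1h and 0.31 for AP_34d against RA_0, but also 0.43 for PLA_1h and 0.23 for PLA_34d, where the median of all transcripts lay between −0.01 and 0.00. Against placebo the median was 0.06 at 1 h and −0.03 at 34 days. Without PLA_34d replicate 1 the median of these 11 was −0.03 for PLA_34d against RA_0 and 0.37 for AP_34d against PLA_34d, so the direction of both rested on that library. Map3k14, the kinase of the non-canonical NF-kB path, stood at 10.5 and 19.6 CPM in RA_0, 34.9 and 15.1 in AP_1h, 19.1 and 33.3 in PLA_1h, 18.7 and 57.7 in AP_34d, and 31.0 and 17.9 in PLA_34d. Each group after therapy had 1 library at or below the higher RA_0 value.

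The NF-kB subunits and inhibitors gave the same count: 5 of 9 symbols were in the table and none met the rule. Nfkb2, whose product is processed when NIK is active, was 22.4 and 23.5 CPM in RA_0, and reached 74.8 CPM in AP_1h replicate 1, 66.5 in PLA_1h replicate 2 and 58.4 in AP_34d replicate 2, but only 19.9 CPM in AP_1h replicate 2. Its difference between acupuncture and placebo was −0.05 ± 0.63 at 1 h and 0.13 ± 0.63 at 34 days (log2, SE), the latter 0.38 without PLA_34d replicate 1. Nfkbia, the inhibitor that NF-kB itself induces, ranged from 45.3 to 122 CPM, and both extremes were 34-day libraries.

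Of 12 genes that NF-kB induces, 8 passed the filter, and the chemokines Ccl2, Ccl7 and Ccl5 and the protease inhibitor Timp1 met the rule for AP_1h against RA_0. Of all transcripts tested, 2.53% were higher by the rule in this contrast. Ccl7, which attracts monocytes, was 0.477 and 1.49 CPM in RA_0, 13.7 and 5.46 in AP_1h and 2.93 and 16.3 in AP_34d, while the 4 placebo libraries lay between 0.284 and 2.48. All 4 acupuncture libraries were thus above the other 6, as they were for 80 of the 10259 transcripts tested (0.78%). This is also the pattern by which the receptor was picked, and the lists were drawn up with earlier results of these data known. Its differences were 2.35 ± 0.76 for AP_1h and 2.11 ± 0.76 for AP_34d against RA_0, and 2.08 and 2.01 against placebo (limma adjusted p = 0.384, 0.967, 0.984 and 0.846).

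Timp1, an inhibitor of matrix metalloproteinases, showed the same separation, 25.4 and 9.38 CPM in AP_1h and 7.62 and 11.2 in AP_34d against 1.71 to 5.35 in the other 6 libraries. Its span overlaps that of Syn1, a neuronal gene, so its reads are uncertain if strand was not used. Ccl2, also a monocyte chemokine, was less even: 18.3 and 5.32 CPM in AP_1h, 1.56 and 29.4 in AP_34d, and 0.526 to 3.77 in the other 6 libraries. Ccl5, which attracts T cells and monocytes, was 15.4 and 2.52 CPM in AP_1h against 1.19 and 1.04 in RA_0. The neutrophil chemokine gene Cxcl1 went the other way in placebo, from 2.62 and 5.94 CPM in RA_0 to 0.449 and 0.142 in PLA_34d. For the 8 genes the median difference from RA_0 was 1.30 in AP_1h, 0.53 in AP_34d, 0.30 in PLA_1h and 0.58 in PLA_34d, and the last came with the high lymphocyte markers of PLA_34d replicate 1, where Vcam1, an adhesion molecule, was 58.4 CPM. Without that library the median for PLA_34d was −0.26. The part of those cells in these values was not tested.

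**Figure D3:**
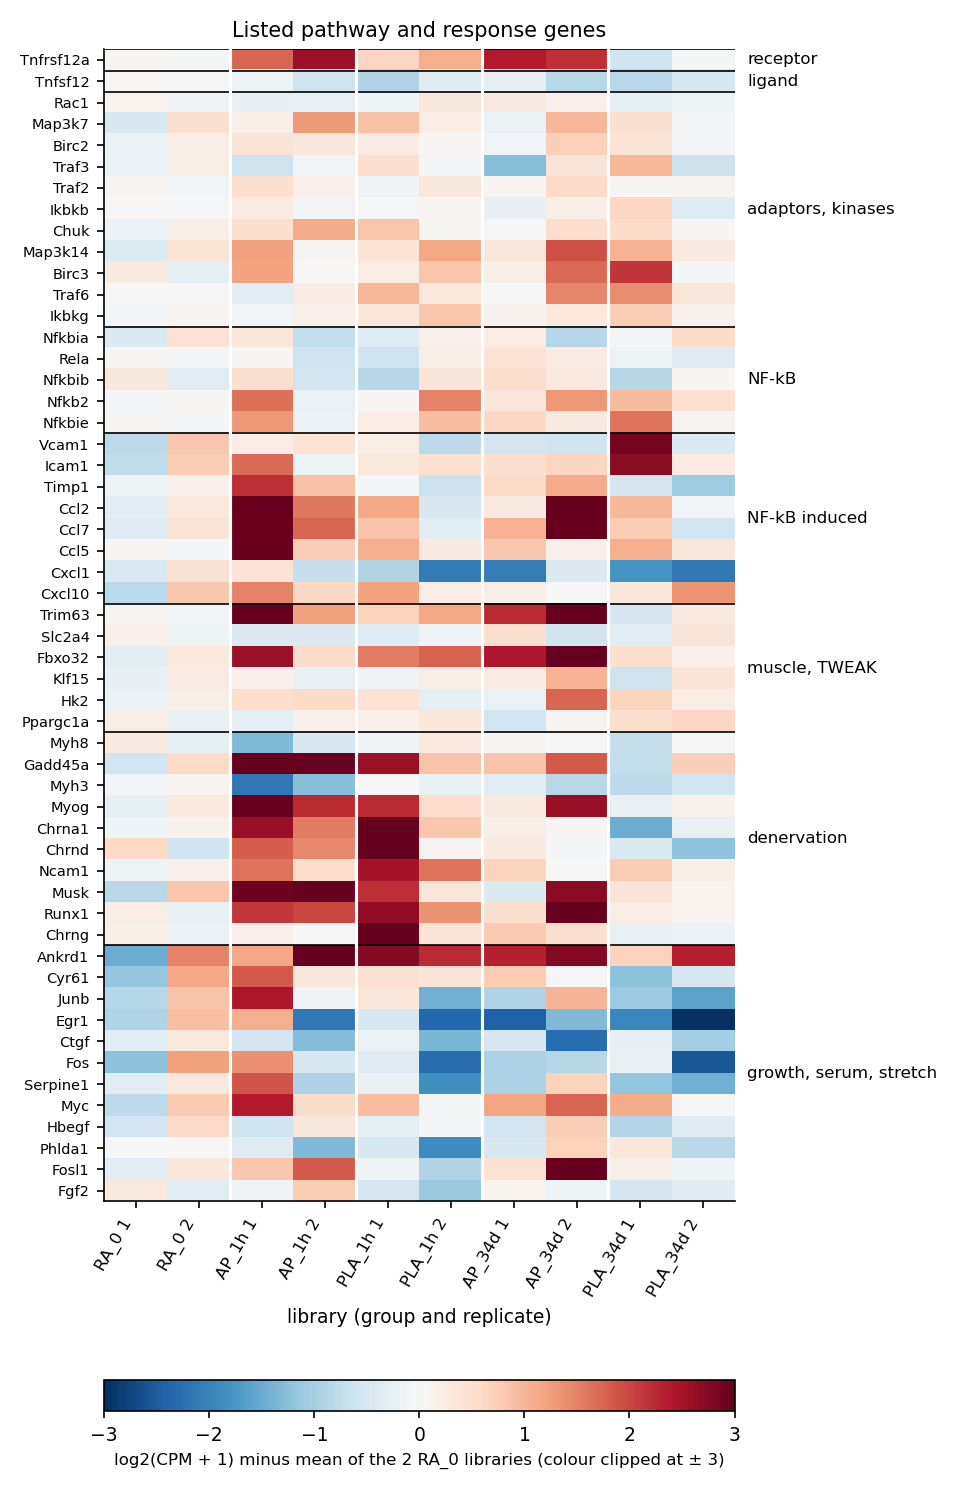
Tested listed genes in each library, as log2(CPM + 1) minus the mean of the 2 RA_0 libraries; rows are grouped by list and ordered by mean level, and colours are clipped at ± 3. Adaptors, kinases and NF-kB genes stay pale in most libraries, whereas Trim63, Ccl7 and Timp1 are above RA_0 in the 4 acupuncture libraries.

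Of the muscle genes reported to move under TWEAK, 6 of 8 symbols were tested, and the ubiquitin ligases of muscle atrophy met the rule. Trim63 (MuRF1) was 306 and 276 CPM in RA_0, 2666 and 680 in AP_1h, 1375 and 2296 in AP_34d, 468 and 646 in PLA_1h, and 196 and 364 in PLA_34d. The 4 acupuncture libraries were above the other 6, as for 0.78% of all transcripts tested, although AP_1h replicate 2 exceeded PLA_1h replicate 2 by little. Trim63 exceeded RA_0 by 2.21 ± 0.61 in AP_1h and by 2.61 ± 0.61 in AP_34d, and AP_34d exceeded PLA_34d by 2.73 ± 0.61 (log2, SE; limma adjusted p = 0.286, 0.722 and 0.756), the last being 2.28 without PLA_34d replicate 1.

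Fbxo32 (atrogin-1), the other ligase, was 21.2 and 33.1 CPM in RA_0, 164 and 39.5 in AP_1h, 78.9 and 93.0 in PLA_1h, 148 and 490 in AP_34d, and 37.1 and 29.9 in PLA_34d. Its 1 h levels in acupuncture and placebo overlapped, with a difference of −0.09 ± 0.66, unlike its 34-day levels, with a difference of 2.98 ± 0.66 (limma adjusted p = 0.756), or 3.13 without PLA_34d replicate 1. The other 4 tested genes of the list, Slc2a4, Klf15, Hk2 and Ppargc1a, which encode a glucose transporter, a transcription factor, a hexokinase and a coactivator of mitochondrial genes, met the rule in no contrast.

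The denervation genes were described in the same way, and by limma's adjusted p none was called. Of 10 tested, 6 were higher and 1 lower by the study's rule for AP_1h against RA_0, and 5 higher for PLA_1h, but 1 for AP_34d and none for PLA_34d. Of all transcripts tested, 2.53% were higher and 3.59% lower by the rule for AP_1h. For PLA_1h, AP_34d and PLA_34d, 0.994%, 1.49% and 1.98% were higher. The median difference of the 10 genes from RA_0 was 1.84 for AP_1h, 1.63 for PLA_1h, 0.49 for AP_34d and −0.13 for PLA_34d. The last was 0.03 without PLA_34d replicate 1. Gadd45a, a growth arrest gene induced in denervated fibres, was 38.9 and 87.9 CPM in RA_0 and 1109 and 526 in AP_1h, against 355 and 107 in PLA_1h (AP_1h minus RA_0 3.68 ± 0.70, limma adjusted p = 0.121). Myog, the myogenic factor myogenin, was 30.1 and 45.9 CPM in RA_0 and 483 and 179 in AP_1h, and 179 and 54.1 in PLA_1h. Runx1, a transcription factor of denervated muscle, was above RA_0 in all 4 of the 1 h libraries, by 2.05 ± 0.78 with acupuncture and 2.00 ± 0.78 with placebo.

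Chrna1, the alpha subunit of the acetylcholine receptor, likewise reached 128 and 62.1 CPM in AP_1h and 192 and 37.0 in PLA_1h from 18.4 and 22.4 in RA_0. At 34 days it was 23.0 and 21.2 after acupuncture and 6.62 and 17.3 after placebo. Myh3, the embryonic myosin, was the 1 gene of the list that was lower, at 61.2 and 112 CPM in AP_1h against 259 and 291 in RA_0 (−1.72 ± 0.36, limma adjusted p = 0.191). Between 1 h and 34 days of acupuncture Gadd45a differed by −2.34 ± 0.70 and Chrna1 by −1.97 ± 0.69, but Myh3 by 1.14. The median of the 10 genes was −1.13 within acupuncture and −1.67 within placebo, and Tnfrsf12a differed by 0.12 ± 0.36 within acupuncture. Runx1, the 1 gene that met the rule for AP_34d against RA_0, was still 1.98 above it. AP_34d exceeded PLA_34d for 9 of the 10 genes, with a median of 0.92, or 0.73 without PLA_34d replicate 1. Over all transcripts tested the median of this contrast was 0.003.

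Genes induced by growth factors, serum or stretch, the class in which the receptor was first placed, gave few that met the rule. Their median difference between acupuncture and placebo was 0.96 at 1 h, with 10 of 12 higher. At 34 days it was 0.96, with 11 of 12 higher, or 1.14 without PLA_34d replicate 1. Against RA_0 the median was 0.46 for AP_1h, 0.06 for AP_34d, −0.66 for PLA_1h and −0.63 for PLA_34d. The median of all transcripts lay between −0.01 and 0.01 in these contrasts. Of the 12 tested, Ankrd1, a stretch-responsive muscle gene, met the rule for AP_1h, AP_34d and PLA_1h against RA_0 (2.29, 2.54 and 2.51, SE 0.96), with 23.4 and 190 CPM in RA_0. Its difference between acupuncture and placebo was −0.22 at 1 h. Fosl1, an AP-1 subunit, was 2.81 and 6.86 CPM in AP_1h and 1.95 and 17.9 in AP_34d. These lay above the 0.175 to 1.78 CPM of the other libraries, a separation that 0.78% of all transcripts tested had. Fosl1 exceeded placebo by 1.84 ± 0.76 and 1.75 ± 0.76, although without PLA_34d replicate 1 the latter, then 1.91, no longer met the rule. Fgf2, the growth factor itself, was 2.05 and 4.62 CPM in AP_1h against 1.29 and 0.526 in PLA_1h. Ctgf, a matrix protein gene under stretch control, was lower in AP_34d than in RA_0 by the rule (−1.39 ± 0.60), and Egr1, an immediate early gene, was lower in PLA_34d (−2.94 ± 1.08, or −3.94 without PLA_34d replicate 1).

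Among the other TNF receptors, 15 of 21 in the table were tested, and none had its 4 acupuncture libraries above the other 6. That separation held for 80 of the 10259 transcripts tested (0.78%), and Tnfrsf12a was chosen by it, so nothing is read from its absence in the others. The 5 with the highest read levels were Tnfrsf21 (death receptor 6), Relt, Tnfrsf1a, Ltbr and Tnfrsf26. Tnfrsf1a, the main receptor of TNF, was 57.8 and 88.0 CPM in AP_34d against 32.6 and 24.4 in PLA_34d and 31.0 and 35.3 in RA_0. It was 78.8 and 29.2 CPM in AP_1h, so that group overlapped the others. It met the study's rule at 34 days, 1.09 ± 0.44 above RA_0 and 1.31 ± 0.44 above placebo (limma adjusted p = 0.967 and 0.846), the latter 1.51 without PLA_34d replicate 1. Ltbr, the lymphotoxin beta receptor, stayed between 29.0 and 58.0 CPM, and Tnfrsf21 between 79.1 and 151. Tnfrsf4 (OX40), a T cell receptor, was 3.46 and 2.38 CPM in AP_1h and 0.391 to 2.13 elsewhere.

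Tnfrsf14 and Cd40, receptors of lymphoid cells, were lower in AP_34d than in PLA_34d by the rule, and this rested on PLA_34d replicate 1: Tnfrsf14 was 90.6 CPM there and 0 to 4.65 in the other 9 libraries, and Cd40 7.85 CPM against 0.586 to 1.73. Without that library the differences were −1.39 for Tnfrsf14 and −0.70 for Cd40, and neither met the rule. Of the other TNF ligands, 3 of 13 in the table were tested. Ltb, lymphotoxin beta, was likewise 43.7 CPM in PLA_34d replicate 1 and 3.29 to 10.6 elsewhere, and its span overlaps that of Clic1. Tnfsf10 (TRAIL) was lower in AP_1h, at 2.59 and 2.38 CPM, than in the other 8 libraries, at 4.06 to 7.18. The share of all transcripts with such a separation was not counted, so nothing is read from it. Tnfsf13 ranged from 3.51 to 15.03 CPM. Tnfsf11 (RANK ligand) and Cd40lg were at 4.94 and 4.71 CPM in PLA_34d replicate 1 and at 0 to 0.142 CPM in the other libraries.

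**Figure D4:**
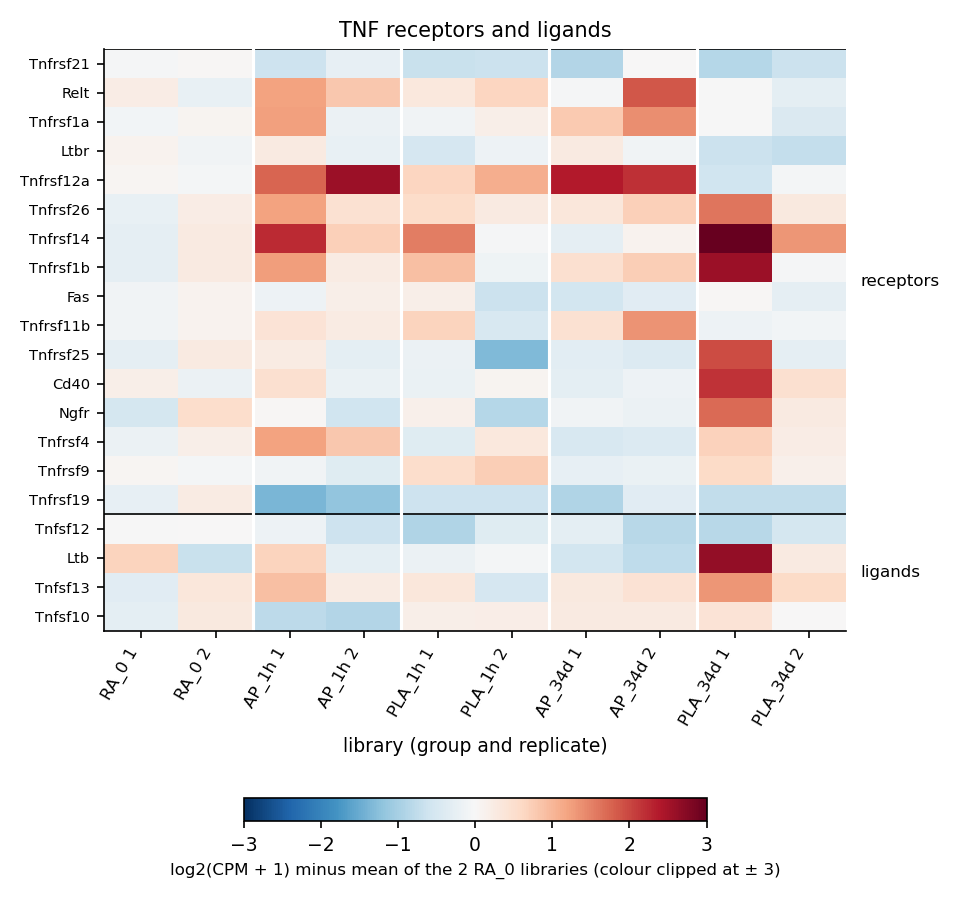
Tested TNF receptors and ligands in each library, as log2(CPM + 1) minus the mean of the 2 RA_0 libraries, ordered by mean level and clipped at ± 3. Tnfrsf12a, which was picked for this, is high in all 4 acupuncture libraries. Tnfrsf14, Tnfrsf1b, Cd40 and Ltb are highest in PLA_34d replicate 1.

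The transcripts most like Tnfrsf12a over the 10 libraries had Pearson's r from 0.902 to 0.960 on the log2(CPM + 1) scale. The first was Ptp4a1, a phosphatase gene of the PRL family, at 145 and 131 CPM in RA_0, 260 and 371 in AP_1h, 246 and 283 in AP_34d, 180 and 183 in PLA_1h, and 102 and 157 in PLA_34d. The second was Ucp3, the mitochondrial uncoupling protein of muscle, which spanned 28.3 to 1177 CPM and was also intermediate in PLA_1h, at 403 and 399 CPM. Wdr43, Mki67ip (now Nifk) and Nufip1 have roles in ribosome production, Tars (Tars1) is a tRNA synthetase, Derl1 acts in disposal of misfolded proteins of the endoplasmic reticulum, Rab1 (Rab1a) in vesicle transport, and Ptrh2 and Akr1c3 complete the 10. Most of them differed much less in size than Tnfrsf12a: Rab1 lay between 87.9 and 131 CPM, and Derl1 between 75.7 and 120. Akr1c3 reached at most 1.76 CPM.

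The 5 transcripts most opposed were Wdr24, Mum1 (now Pwwp3a), Ptprs, Jmjd7 and Klc4, with r from −0.945 to −0.907. Mum1, for instance, was 31.5 and 30.6 CPM in RA_0 and 13.6 to 15.7 in the 4 acupuncture libraries. These likenesses rank 10258 transcripts on 10 libraries that share the same groups, and no p is attached to them. Promoters were found for 8 of the 10 most alike transcripts: 4 (Tars1, Ptp4a1, Rab1a and Akr1c3) held a GC box, and none held one of the other motifs.

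**Figure D5:**
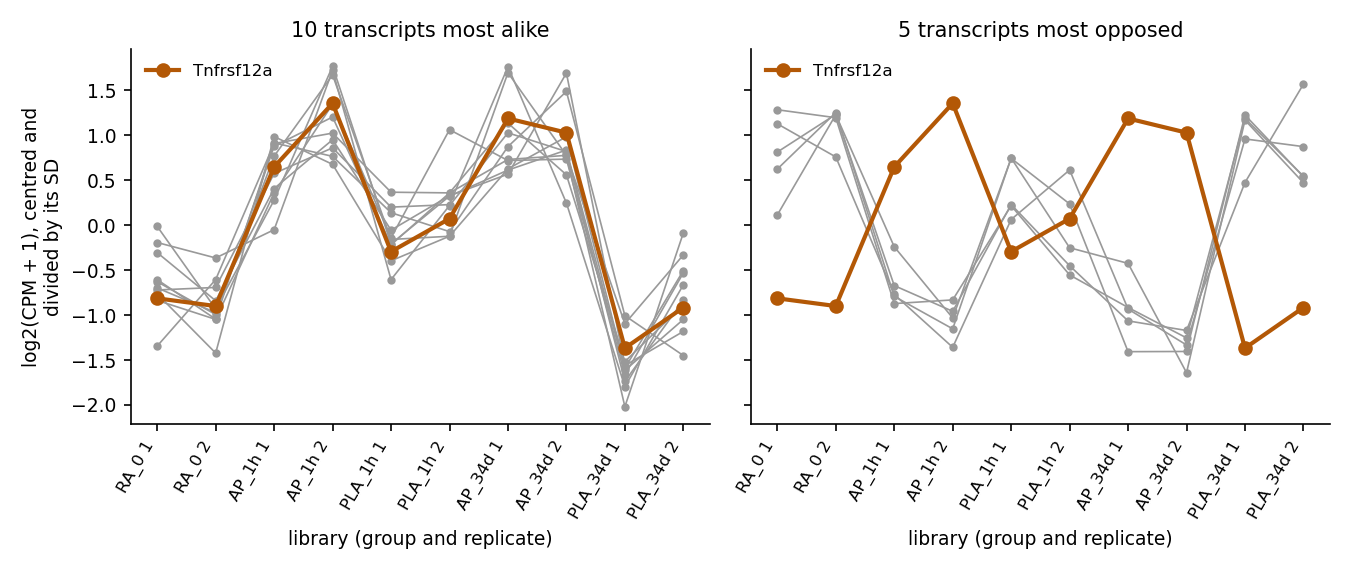
Profiles of Tnfrsf12a (orange) and of the 10 transcripts most alike (left) and 5 most opposed (right), as log2(CPM + 1) centred and divided by its SD over the 10 libraries. For Tnfrsf12a and Ptp4a1 the acupuncture libraries are high, PLA_1h intermediate, and RA_0 and PLA_34d low.

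Cell type markers were set beside the receptor, and most of their sums in the acupuncture libraries overlapped those of RA_0. Macrophage markers were higher than RA_0 on the fitted mean for 9 of 9 in both AP_1h and AP_34d. Of these, 3 and 2 met the study's rule, where 2.53% and 1.49% of all transcripts tested were higher by it. Their sums were 312 and 121 CPM in AP_1h and 254 and 136 CPM in AP_34d, against 120 and 106 CPM in RA_0. Tnfrsf12a was 37.2 and 66.6 CPM in AP_1h and 58.0 and 50.9 CPM in AP_34d. In PLA_34d the sums were 301 and 90.4 CPM and the receptor levels 6.51 and 9.81 CPM, replicate 1 being the library that stood apart. Fibre markers were lower than in RA_0 for 9 of 10 in AP_1h, 2 by the study's rule, and 8 of 10 in AP_34d, 0 by the rule. Of all transcripts tested, 3.59% and 1.33% were lower by it. Fibroblast markers summed to 1659 to 2676 CPM in AP_1h and 1025 to 2253 in AP_34d against 1104 to 2512 in RA_0, tendon markers to 38.3 to 61.9 CPM in AP_1h against 79.2 to 230 in RA_0, and satellite cell markers to 25.4 to 36.7 CPM in the acupuncture libraries against 35.8 to 42.0 in RA_0. Schwann cell markers summed to 39.9 to 61.8 CPM in the acupuncture libraries and 49.4 to 253 in RA_0. Sums in the acupuncture libraries and RA_0 were 142 to 244 and 211 to 219 CPM for endothelium, 291 to 1026 and 481 to 687 for adipocytes, 2.15 to 5.74 and 4.01 to 4.77 for keratinocytes, 0.448 to 10.2 and 1.49 to 1.67 for lymphocytes, 1.56 to 17.6 and 6.44 to 7.13 for neutrophils, and 229 to 518 and 273 to 628 for red blood cells. The part of any of these cells in the receptor's level was not tested.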

How the data were processed

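RNA was sequenced on an Illumina HiSeq instrument after TruSeq library preparation from 10 frozen samples that, per the labels, were extracted as a single batch. Per the submitters' processing notes and the study's methods, the authors used CASAVA 1.8.2, trimmed reads with cutadapt 1.2.1, aligned them to rn4 with Bowtie2 2.1.0 and counted them per transcript with HTSeq 0.5.4p3 in intersection-nonempty mode; whether strand was used is not given in the sources used here. The deposited signal is a CPM value per transcript that the authors scaled with TMM factors (edgeR 3.4.2). In all 10 libraries 100% of values were whole multiples of 1 read within 0.01 reads, which returned the reads.

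Samples were grouped by their titles. Values were tested as log2(CPM + 1), so differences of low transcripts are understated. A transcript was kept if some group had 1 CPM or more in each of its libraries, which left 10259 of 17221 (59.6%). limma 3.58.1 (R 4.3.3) fitted 1 mean per group to the 10 libraries and moderated the variances with eBayes along their trend, giving 5 residual degrees of freedom and 5.14 from the prior, and p-values were adjusted by Benjamini-Hochberg over all tested transcripts; a call is an adjusted p under 0.05. limma-voom, edgeR 4.0.16 and DESeq2 1.42.0 were run on the recovered reads as alternatives, beside other scalings, filters and pseudocounts and each library left out. The code was tested on simulated data. With 2 animals a group, intervals are wide, and p-values measure the spread between the labelled samples. Wilson intervals and the limit for a count of 0 cover counting error only.

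The members and lists were chosen with earlier results of these data known. Named were both members, Cd163, listed genes that met the study's rule (per contrast and direction, at most 3, taken by p), the 5 other TNF receptors and 5 other ligands with the highest level, the 10 transcripts most and 5 least correlated with Tnfrsf12a, the neighbours of both members, and adaptor and NF-kB genes as examples. Musk, Ncam1, Chrnd, Tnfrsf25 and Junb also came under the choice by p but are not described above. Muscle list genes that met no rule, Vcam1, Tnfrsf1b and the marker Acta1 were named after their values were seen. List symbols with no row in the table were not analysed here, and Adgre1 stands in it as Emr1. Columns of all 10 samples were used. Python 3.11.15 with scipy 1.17.1 and matplotlib 3.10.9 gave the permutation test and the plots.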

Additional observations from a re-analysis of the deposited data

Results flagged for a closer look

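Each of the following moved in opposite directions at 1 h and at 34 days, every library of a group lying on the same side of the libraries it was compared with; the difference between the times was not tested by this criterion, and in the limma fit no difference of the acupuncture and placebo gap between the times passed the adjusted p. Against RA_0, Tnfrsf12a in placebo was 0.87 higher at 1 h and 0.33 lower at 34 days on the log2(CPM + 1) scale (change of −1.20), each with an SE of 0.36. The 34-day gap was narrow, with 9.81 CPM in PLA_34d replicate 2 against 9.95 CPM in RA_0 replicate 2. Without PLA_34d replicate 1, which stands apart, the 34-day difference was −0.07 and the change −0.94. Chrna1, the acetylcholine receptor subunit gene, did the same in placebo (2.01 and −0.85, change −2.86), as did Chrng, its fetal gamma subunit (2.04 and −0.21, change −2.25). Without PLA_34d replicate 1 the 34-day difference of Chrna1 from RA_0 was −0.22 and its change −2.22, and for Chrng these were −0.19 and −2.24. Chrng in acupuncture against placebo changed by 2.81, from −1.95 to 0.85, and was 24.2 CPM in PLA_1h replicate 1 against 0.673 to 2.34 CPM in the other libraries. Tnfrsf4, the OX40 receptor gene, changed by −1.45 in acupuncture against RA_0 (1.00 and −0.45) and by −1.95 against placebo (1.03 and −0.91, or −0.68 without PLA_34d replicate 1), at no more than 3.46 CPM. Tars, a tRNA synthetase gene among those most like Tnfrsf12a, changed by −0.51 in placebo against RA_0 (0.24 and −0.27), or by −0.45 without PLA_34d replicate 1. No cause was tested for any of these.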

How the results depend on the processing

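Tnfrsf12a moved by less than 1 SD of its replicates (0.34, log2) in 140 of 140 values from 14 settings that kept all libraries. With a library left out it moved by more in 8 of 100, each without AP_1h replicate 1 or 2: AP_1h minus RA_0 ran from 1.75 to 2.58, AP_1h minus PLA_1h from 0.88 to 1.71, AP_34d minus AP_1h from −0.29 to 0.54, and the widening of the gap at 34 days from 0.91 to 1.74. Tnfsf12 passed the threshold in no setting (lowest adjusted p 0.432), and its small differences changed sign: AP_34d minus PLA_34d was −0.10 as CPM without TMM and −0.052 with totals without the 20 most abundant transcripts, and PLA_34d minus PLA_1h was 0.16 and 0.089. These 2 scalings also moved the median of all transcripts. For AP_34d minus PLA_34d it was −0.19 and −0.16 with them, against 0.003 in the main fit. For the difference of gaps it was −0.26 and −0.20, against 0.02. The cause of the sign changes was not tested. Left-out libraries gave Tnfsf12 ranges of −0.036 to 0.51 for AP_1h minus PLA_1h, −0.16 to 0.38 for AP_34d minus PLA_34d, −0.44 to 0.10 for AP_34d minus AP_1h, −0.31 to 0.23 for PLA_34d minus PLA_1h and −0.40 to 0.14 for the difference of gaps. The permutation test kept p at 0.4 or above with all 8 libraries; with 7 it cannot go below 0.0571.

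Of all 10259 transcripts tested, DESeq2 called 1.69% for AP_1h, 0.322% for AP_34d and 0.107% for PLA_1h against RA_0. It called 0.409% and 0.877% for acupuncture against placebo at 1 h and 34 days. For PLA_34d minus PLA_1h it called 0.341%, and for AP minus PLA 0.624%. With the compared groups only, 108 of the 10259 were called for AP_1h minus RA_0. Listed genes called, of 71 tested, numbered 0 in the limma fit. With DESeq2 they numbered 5 for AP_1h, 3 for AP_34d and 1 for PLA_1h against RA_0. For acupuncture against placebo they numbered 2 and 5 at 1 h and 34 days. They numbered 3 for PLA_34d minus PLA_1h and 5 for AP minus PLA, and with the compared groups only 6 for AP_1h minus RA_0. Without PLA_34d replicate 2 the listed genes tested numbered 83, not 71, and all transcripts tested numbered 10943. In the contrasts that use PLA_34d the number of all transcripts called rose too, as given below. No count of listed genes called is therefore read from that fit. Without PLA_34d replicate 2, which leaves the library that stands apart alone in its group, the counts ranged up from 0 to 8 for PLA_34d minus RA_0, 12 for AP_34d minus PLA_34d, 10 for PLA_34d minus PLA_1h, 5 for AP minus PLA and 7 for the difference of gaps.

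The number of all transcripts that met the study's rule moved with the setting and with a library left out. For AP_34d minus PLA_34d it was 366 in the main fit, 315 as CPM without TMM, 602 with edgeR and 628 with DESeq2. For AP_1h minus PLA_1h it was 269, and 165 with pseudocount 4, 365 with DESeq2 and 400 with the compared groups only. For PLA_34d minus RA_0 it was 248, and 107 with pseudocount 4 and 501 with DESeq2. Listed genes meeting the rule for PLA_1h minus RA_0 were 5 as CPM without TMM and 5 with limma-voom. For PLA_34d minus RA_0 they were 2 with pseudocount 4, 2 with a mean of at least 5 CPM and 2 with limma-voom. There they were 7 with edgeR and 11 with DESeq2. For AP_1h minus PLA_1h they were 5 with pseudocount 4 and 4 with a mean of at least 5 CPM. There they were 14 with DESeq2 and 15 with the compared groups only. For AP_34d minus PLA_34d they were 7 as CPM without TMM, 18 with edgeR and 18 with DESeq2. With a library left out they ranged from 8 to 21 (AP_1h), 3 to 17 (AP_34d), 3 to 9 (PLA_1h) and 3 to 18 (PLA_34d) against RA_0, and from 6 to 16 and 6 to 20 for acupuncture against placebo. Over all transcripts DESeq2 called 173 for AP_1h minus RA_0 where limma called 3, the compared groups only gave 108, pseudocount 4 gave 1, and CPM without TMM, no filter, totals without the 20 most abundant, limma-voom and edgeR each gave 0; a left-out library gave 0 to 6. In the other contrasts, where limma called 0, DESeq2 called 11 to 90 and the compared groups only up to 12, a mean of at least 5 CPM gave up to 4, and leaving out PLA_34d replicate 2 gave up to 453. A replicate block left AP_1h minus RA_0 at 2.16 for Tnfrsf12a and −0.39 for Tnfsf12, with 0 of the listed genes and 0 of all transcripts called; replicate numbers do not pair the samples, since deviations of same-numbered libraries correlated between −0.463 and 0.431. Depth limits the low genes: at 1 CPM a value rests on 4.19 to 10.1 reads.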
